A study of Homo sapiens with 22 samples.

Results

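The transcripts described here are those of the mitochondrial genome in IMR90 cells, an established line of human lung fibroblasts. They were taken as every gene of the count files whose symbol starts with MT-, which gave 37 of 60664 genes. These are 13 messenger RNAs, 2 ribosomal RNAs and 22 transfer RNAs, and all 37 were found at their place on the mitochondrial chromosome in the GENCODE v44 annotation of hg38. The study asked how the kinase MSK2, the product of RPS6KA4, contributes to the early transcriptional response to epidermal growth factor (EGF). All cells carried siRNA, given at 10 nM every 24 h for 72 h, and were starved of serum for 24 h. They received either a non-template scramble control or MSK2 siRNA, and then PBS, 750 pM EGF for 30 min or 750 pM EGF for 60 min. Control and MSK2 siRNA gave 4 and 4 libraries after PBS, 4 and 4 after 30 min of EGF and 3 and 3 after 60 min. The labels give the PBS groups a time of 60 min, so that no PBS group of 30 min was compared.

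The mitochondrial genome is a small circle present in many copies per cell, and it is transcribed inside the organelle by its own RNA polymerase, POLRMT, with the factors TFAM and TFB2M. Both strands give long precursor transcripts that are cut into separate RNAs, largely at the transfer RNAs that punctuate them. The messenger RNAs encode subunits of respiratory complexes I, III and IV and of the ATP synthase, complex V, and the ribosomal RNAs form the core of the mitochondrial ribosome. Every other protein of mitochondria comes from the nucleus.

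The arrangement of the genes bears on how their reads can be told apart, so the stretches where it matters are shown from hg38, 5′ to 3′. In the first pair the capitals mark the 46 bases shared by MT-ATP8 and MT-ATP6 (chrM:8512-8587, plus strand) and the 7 bases shared by MT-ND4L and MT-ND4 (chrM:10745-10781, plus strand). Each of these pairs is read from 1 messenger RNA with both reading frames. The other pair are the transfer RNA that separates MT-RNR2 from MT-ND1, MT-TL1 (chrM:3230-3304, plus strand), and the transfer RNA with the most counts, MT-TP (chrM:15956-16023, minus strand).
MT-ATP8/MT-ATP6: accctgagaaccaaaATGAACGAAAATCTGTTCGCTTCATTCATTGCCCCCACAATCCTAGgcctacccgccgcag
MT-ND4L/MT-ND4: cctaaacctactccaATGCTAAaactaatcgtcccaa
MT-TL1: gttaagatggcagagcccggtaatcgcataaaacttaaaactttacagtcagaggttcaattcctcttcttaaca
MT-TP: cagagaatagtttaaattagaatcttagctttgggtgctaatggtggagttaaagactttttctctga

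The libraries held 7893209 to 22244216 counts assigned to genes (median 15037489.5), of which 114333 to 432573 were mitochondrial. PBS control replicate 4 had the fewest counts and the fewest genes detected, 20739 against 23974 to 32062 in the other libraries. It also had the lowest share of reads outside any gene, 2.53% against 3.26 to 7.21%. RPS6KA4 lay between 1.74 and 3.77 CPM (counts scaled to the size of the library) in every library with MSK2 siRNA and between 11.1 and 26.9 CPM in every library with control siRNA. All 12 fibroblast markers passed the filter on low values, with a summed level of 47620 to 78790 CPM, against 0 of 6 leukocyte markers, whose sum lay between 0.0963 and 1.35 CPM. Neither the labels nor the methods say that libraries of a group came from separate cultures, so P values measure only the spread between these libraries. In bulk RNA, fewer cells of a type and less RNA per cell cannot be told apart.

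Mitochondrial transcripts took 1.16 to 2.85% of the counts assigned to genes (median 1.80%). The share was highest after PBS with MSK2 siRNA, at 2.85, 2.33, 2.04 and 2.06% in the 4 libraries. With control siRNA and PBS it was 1.95, 1.66, 1.47 and 1.45%. The 2 groups did not overlap. After 30 min of EGF the share was 1.88, 2.07, 1.46 and 1.54% with control siRNA and 1.73, 2.07, 1.79 and 1.54% with MSK2 siRNA, and these groups overlapped over most of their range. After 60 min it was 1.59, 1.19 and 1.16% with control siRNA and 1.82, 1.86 and 1.95% with MSK2 siRNA, again without overlap. On the log2 scale the share with MSK2 siRNA stood 0.51 above control after PBS, 0.03 above after 30 min and 0.52 above after 60 min. The mean share was 1.63 ± 0.235% (SD) with control siRNA and 2.32 ± 0.379% with MSK2 siRNA after PBS, 1.74 ± 0.288% and 1.78 ± 0.219% after 30 min, and 1.31 ± 0.238% and 1.88 ± 0.0648% after 60 min. The share is a sum over the members and was not tested.

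MT-RNR1 and MT-RNR2 together took 0.830 to 1.24% of gene counts with control siRNA and PBS and 1.29 to 1.79% with MSK2 siRNA. After 60 min of EGF they took 0.621 to 0.860% with control siRNA and 1.20 to 1.24% with MSK2 siRNA, so neither pair of groups overlapped. The 13 messenger RNAs took 0.420 to 0.714% with control siRNA and 0.617 to 1.06% with MSK2 siRNA after PBS. After 60 min they took 0.448 to 0.726% and 0.621 to 0.704%. Both pairs of groups overlapped for the messenger RNAs. On the log2 scale the mean share with MSK2 siRNA stood above control after PBS by 0.55 for the ribosomal and 0.44 for the messenger RNAs, and after 60 min by 0.74 and 0.17. After 30 min the values were -0.06 and 0.20. The messenger RNA share includes MT-CO1, which varied most between libraries. Its mean level with control and MSK2 siRNA was 1446 and 2668 CPM after PBS and 1014 and 2246 CPM after 30 min. After 60 min it was 1548 and 1517 CPM. After 30 min only 2 of the 15 members past the filter, MT-CO1 and MT-ND6, had a log2 fold change above 0. The value of 0.20 therefore does not describe most messenger RNAs. The difference between both kinds of RNA was not tested.

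**Figure D1:**
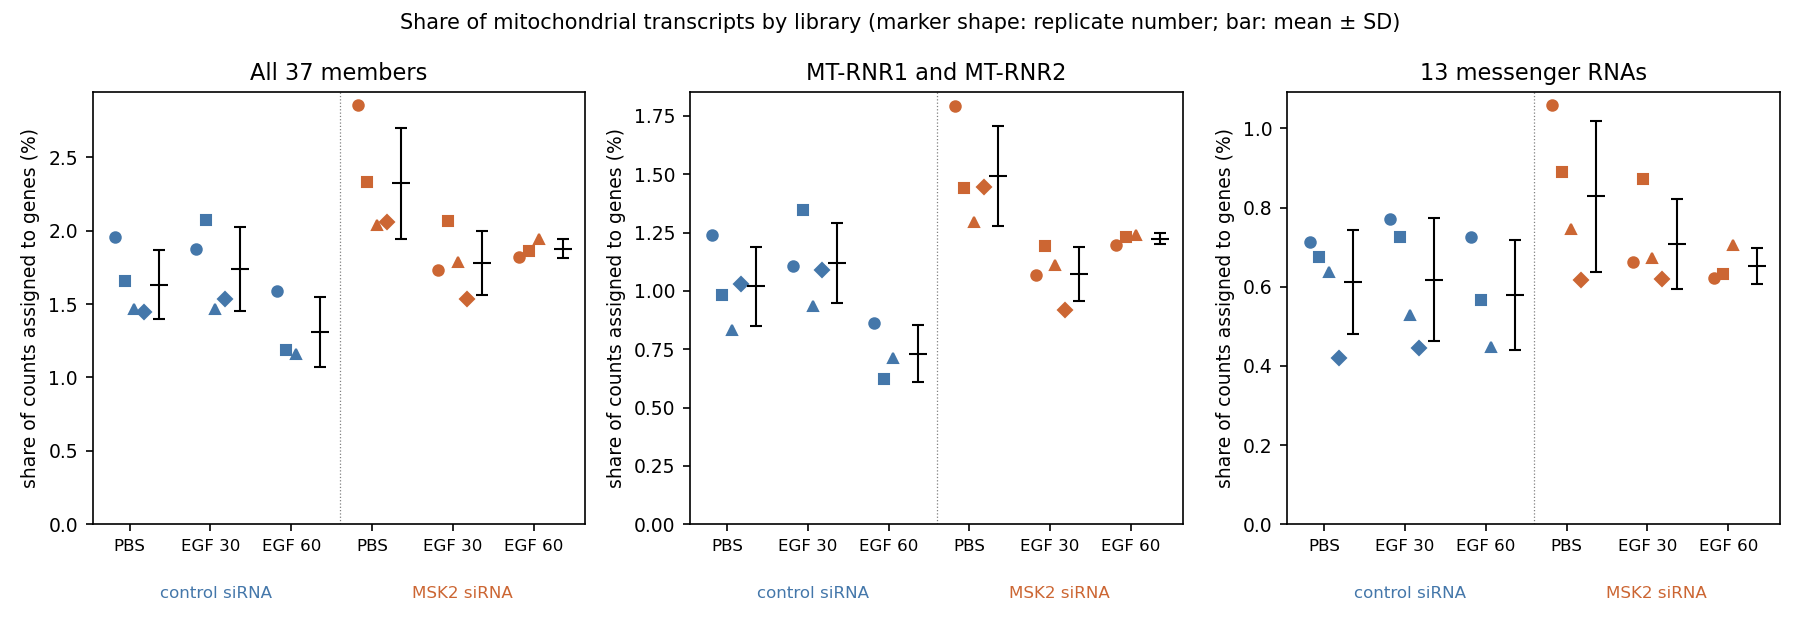
Share of counts assigned to genes (%, vertical axis) that fell on all 37 members, on the 2 ribosomal RNAs and on the 13 messenger RNAs, for each library of the 6 groups (points), with the mean and SD beside them. For all members, the PBS libraries with MSK2 siRNA sit between 2.04 and 2.85%, all above the PBS libraries with control siRNA, while the messenger RNAs alone overlap in every pair of groups.

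MT-RNR2, the 16S ribosomal RNA of the large subunit (ENSG00000210082, chrM:1671-3229), held 61.2% of all mitochondrial counts, and from 50.9 to 69.9% in single libraries. MT-CO1 held 9.57%, MT-CO2 6.17%, MT-CO3 5.83%, MT-ND4 4.71% and MT-CYB 3.42%. MT-RNR1, the 12S ribosomal RNA of the small subunit (ENSG00000211459, chrM:648-1601), held 1.31%, although it lies just upstream of MT-RNR2 on the same strand. The share of MT-RNR2 within the mitochondrial counts was 62.4 to 64.5% after 60 min of EGF with MSK2 siRNA and 50.9 to 59.95% with control siRNA.

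Divided by gene length, the mean level over the 22 libraries was 7149 ± 1708 CPM per kb (SD) for MT-RNR2 and 249 ± 49.0 CPM per kb for MT-RNR1, a ratio of 28.7. How fully the cDNA kit took up each kind of RNA was not tested. The levels of ribosomal, transfer and messenger RNAs given here are therefore levels of counts, not of RNA in the cell. The subunits of cytochrome c oxidase, complex IV, came next. MT-CO2 stood at 1634 ± 305.5 CPM per kb, MT-CO3 at 1351 ± 263 CPM per kb and MT-CO1 at 1140 ± 586 CPM per kb. MT-CO2 was above MT-CO3 in 22 of 22 libraries, but MT-CO3 was above MT-CO1 in only 12 of 22.

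Below them per length were MT-ND4 (622 ± 102 CPM per kb), a subunit of complex I, MT-CYB (543.5 ± 103.5 CPM per kb), the cytochrome b of complex III, and MT-ATP6 (474 ± 84.4 CPM per kb), a subunit of the ATP synthase. These neighbours differed by less than 1 SD, yet in all 22 libraries MT-ND4 was above MT-CYB and MT-CYB above MT-ATP6. MT-ND4L had 427 ± 60.7 CPM per kb although it shares its messenger RNA with MT-ND4, and MT-ATP8 had 155 ± 35.4 CPM per kb although it shares its messenger RNA with MT-ATP6. The counts per length therefore differed between genes of a shared RNA. Reads set aside as ambiguous between genes made up 8.08 to 8.745% of the reads of a library, and their part in this was not tested. The remaining complex I subunits ranged from 235.5 ± 40 CPM per kb for MT-ND5 over 198 ± 36.4 for MT-ND1, 192.5 ± 31.9 for MT-ND6 and 155 ± 23.6 for MT-ND2 down to 102.5 ± 25.1 for MT-ND3. MT-ND1 was above MT-ND6 in 14 of 22 libraries and MT-ND2 above MT-ATP8 in 12 of 22, so these neighbours had no stable order.

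Copies of mitochondrial sequence in the nuclear genome share reads with the members, and reads placed in several positions were set aside by the counting. Of all stretches of 35 bases, the read length, within MT-CO1, 64.9% had an exact copy on a nuclear chromosome of hg38. The value was 59.8% for MT-ATP6, 58.7% for MT-RNR1, 53.2% for MT-ND2, 45.85% for MT-CO2, 42% for MT-CO3 and 30.9% for MT-RNR2, but 5.15% for MT-CYB and 2.24% for MT-ND3. Levels between members are uncertain for this reason. Reads came in pairs, and single stretches do not show whether both reads of a pair fit a copy, so these shares can overstate the loss. Divided by the kb of start positions without such a copy, MT-CO1 (3325 CPM per kb) stood above MT-CO2 (3176 CPM per kb) and MT-CO3 (2434 CPM per kb), MT-RNR1 came to 625 CPM per kb, and MT-RNR2 had the highest value, 10840 CPM per kb. Genes named as nuclear copies of the members (415 genes) held 361 to 1792 counts per library, or 0.316 to 0.499% of the mitochondrial counts.

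**Figure D2:**
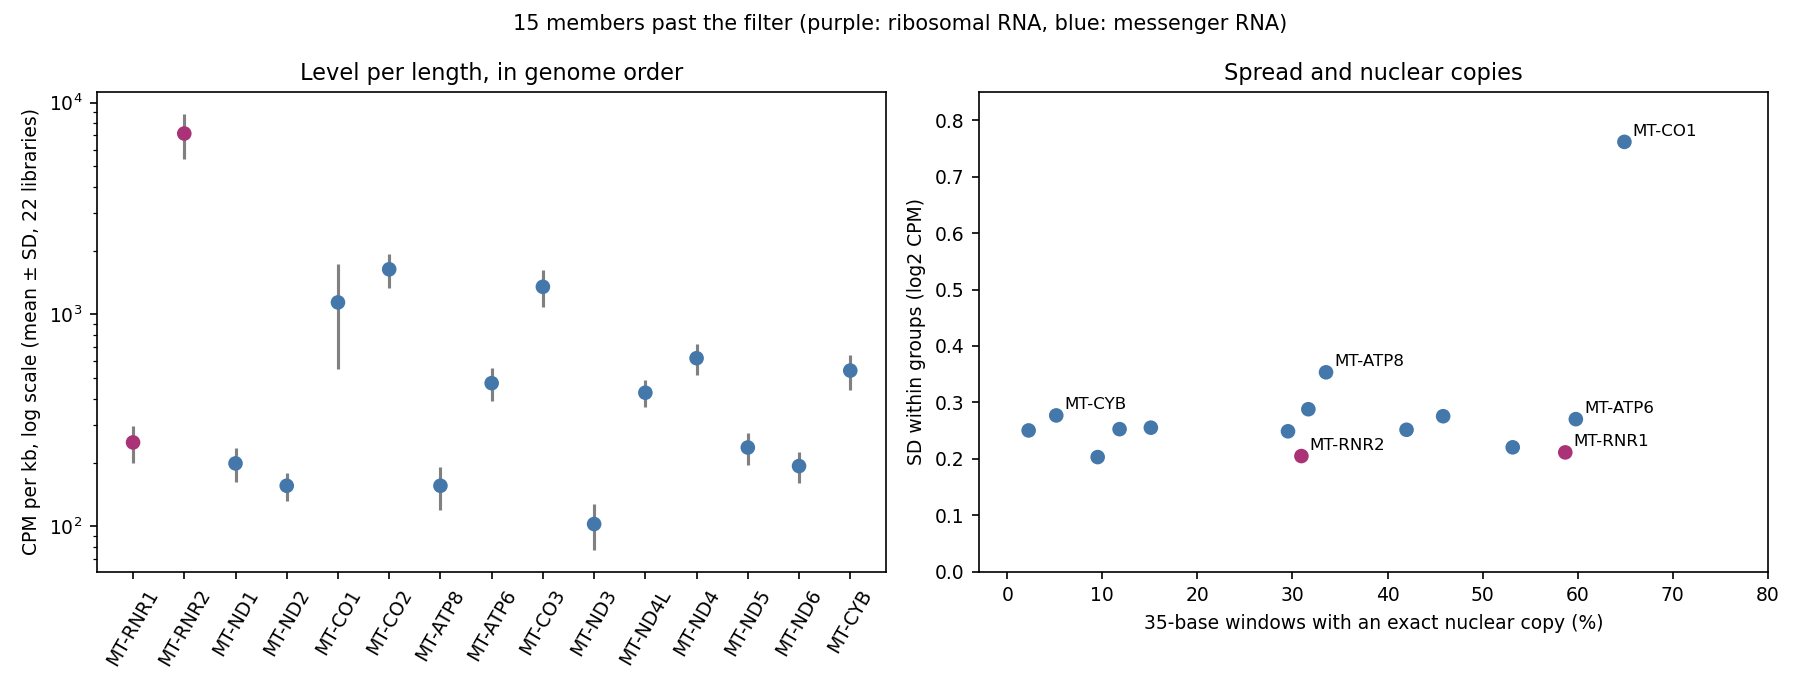
Left, level per gene length (CPM per kb, log axis, mean and SD over 22 libraries) of the 15 members past the filter, in genome order. Right, SD within groups on the log2 scale against the share of 35-base stretches with an exact nuclear copy (%). MT-RNR2 has 7149 CPM per kb on the left, and on the right MT-CO1 stands alone at an SD of 0.76 while the others lie between 0.20 and 0.35.

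The 22 transfer RNAs had 3701 counts in all libraries together, 0.0625% of the mitochondrial counts, and none of them passed the filter of more than 10 CPM in at least 2 libraries. MT-TP held 58.4% of these, with 50 to 148 counts per library (3.83 to 10.03 CPM, mean 6.64 CPM). MT-TT had 597 counts over all libraries, MT-TY 393 and MT-TL1 236. MT-TQ, MT-TN, MT-TS1 and MT-TK had 0 counts in every library. In these 4, as in 4 other transfer RNAs, every stretch of 35 bases had a nuclear copy, and these 8 genes had 86 counts together. The 5 transfer RNAs with no such stretch, MT-TP, MT-TT, MT-TL1, MT-TF and MT-TG, had 3039. Transfer RNAs were thus at the limit of detection in these libraries, and the parts of the nuclear copies and of the cDNA kit in this were not tested.

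The library kit does not mark the strand, so sense and antisense reads were counted together. This bears on the genes of the light strand, MT-ND6 (chrM:14149-14673) among the messenger RNAs and MT-TP among the transfer RNAs, since both strands of the circle are transcribed throughout. The order of the levels holds for both strands together.

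In the 15 members that passed the filter, the change with each treatment was read from a model of all 9770 tested genes, the quasi-likelihood test of edgeR. All CPM given here are relative to the counts of these genes, scaled by the TMM method. A gene was called at an adjusted P under 0.05, adjusted over all tested genes. Comparisons of EGF or of siRNA within the same siRNA or treatment share libraries with each other, and their values are given side by side without a test between them.

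With MSK2 siRNA and no EGF, the scaled counts of both ribosomal RNAs rose and those of every messenger RNA lay above control. No messenger RNA passed the test in the main model, which leaves out the replicate number. With the replicate number in the model several did, as given below. MT-RNR2 had 12630, 9753, 8222 and 10290 CPM in the libraries with control siRNA. With MSK2 siRNA it had 18070, 14240, 12850 and 14330 CPM. All 4 libraries with MSK2 siRNA lay above all 4 with control siRNA, a log2 fold change of 0.54 ± 0.12 (SE, edgeR adjusted P = 0.00121). MT-RNR1 had 238.5, 237, 194 and 160 CPM with control siRNA and 361, 289, 262 and 248.5 CPM with MSK2 siRNA. These groups did not overlap either, and the log2 fold change was 0.48 ± 0.12 (edgeR adjusted P = 0.0049).

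After PBS, 2 of 15 members were thus called higher, against 12.2% of all tested genes. The median log2 fold change of the 15 was 0.28 beside 0.00 for all genes, and the 13 messenger RNAs ranged from 0.09 for MT-ATP8 to 0.88 for MT-CO1. Without adjustment, 6 members were higher at P under 0.05, as were 17.6% of all tested genes. MT-ND6, the 1 messenger RNA of the light strand, had 105, 107, 94.9 and 69.5 CPM with control siRNA and 122, 128, 110 and 100 CPM with MSK2 siRNA, with a log2 fold change of 0.28 ± 0.14 (edgeR adjusted P = 0.168). Libraries of the same replicate number deviated together in this comparison (4 pairs, correlations of 0.143 to 0.5), a pairing that comes from the data alone. With the replicate block, 10 of 15 members were called higher, namely MT-RNR1, MT-RNR2, MT-ND1, MT-ND4, MT-ND4L, MT-ND5, MT-ND6, MT-CYB, MT-CO3 and MT-ATP6, against 13.4% of all tested genes called higher with the same block. Without PBS control replicate 4, the log2 fold change was 0.55 for MT-RNR2 (adjusted P = 0.00196) and 0.38 for MT-RNR1 (adjusted P = 0.0221).

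After 60 min of EGF, both ribosomal RNAs were again higher with MSK2 siRNA, joined by MT-ND3, a small subunit of complex I. MT-RNR2 had 8661, 6156 and 7038 CPM with control siRNA and 11740, 12190 and 12230 CPM with MSK2 siRNA. The MSK2 libraries lay close together and well above the others, with a log2 fold change of 0.73 ± 0.14 (edgeR adjusted P = 0.000344). MT-RNR1 had 208.5, 169 and 166 CPM with control siRNA and 237, 283 and 263 CPM with MSK2 siRNA, without overlap (log2 fold change 0.53 ± 0.14, edgeR adjusted P = 0.00918). MT-ND3 (ENSG00000198840, chrM:10059-10404) had 23.1, 24.4 and 21.6 CPM with control siRNA and 31.0, 54.3 and 32.7 CPM with MSK2 siRNA. Its groups did not overlap, but replicate 2 stood far above the other MSK2 libraries. Its log2 fold change was 0.78 ± 0.18 (edgeR adjusted P = 0.00258), and 0.47 (adjusted P = 0.0672) without MSK2 replicate 2. The call of MT-RNR1 was lost without MSK2 replicate 2 (0.47, adjusted P = 0.0506) or without control replicate 3 (0.48, adjusted P = 0.0539).

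The 3 members called higher of 15 stand against 9.37% of all tested genes in this comparison. The median log2 fold change of the 15 members was 0.22 beside 0.01 for all genes, and 14 of 15 were above 0. The exception was MT-CO1, at -0.03 ± 0.46. MT-ND6 had 113, 75.01 and 76.4 CPM with control siRNA and 114, 107 and 94.7 CPM with MSK2 siRNA (log2 fold change 0.26 ± 0.17, edgeR adjusted P = 0.306), and its libraries overlapped.

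After 30 min of EGF the siRNAs differed in only 1 member. MT-RNR2 had 11020, 13500, 9289 and 10860 CPM with control siRNA and 10420, 11710, 10940 and 9053 CPM with MSK2 siRNA. The groups overlapped, with a log2 fold change of -0.08 ± 0.12 (edgeR adjusted P = 0.632). MT-RNR1 had 279, 271, 228 and 193 CPM with control siRNA and 228, 234, 259 and 215 CPM with MSK2 siRNA, at -0.05 ± 0.12. MT-ND6 was at 117, 114, 93.3 and 78.7 CPM with control siRNA and at 115, 114, 94.5 and 79.2 CPM with MSK2 siRNA, at 0.00 ± 0.14 (edgeR adjusted P = 0.993).

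The member called higher after 30 min was MT-CO1, the catalytic subunit of complex IV (ENSG00000198804, chrM:5904-7445). It had 1578, 1539, 364 and 574 CPM with control siRNA and 1245, 3579, 2020 and 2142 CPM with MSK2 siRNA. The groups overlapped, with a log2 fold change of 1.15 ± 0.41 (edgeR adjusted P = 0.0326). The call was lost without control replicate 3 (0.87, adjusted P = 0.115), control replicate 4 (0.945, adjusted P = 0.106), MSK2 replicate 2 (0.83, adjusted P = 0.150) or MSK2 replicate 4 (1.17, adjusted P = 0.0505), and in DESeq2 (adjusted P = 0.0529). This is 1 of 15 members against 14.9% of all tested genes, and the median log2 fold change of the members was -0.07 beside 0.01 for all genes.

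**Figure D3:**
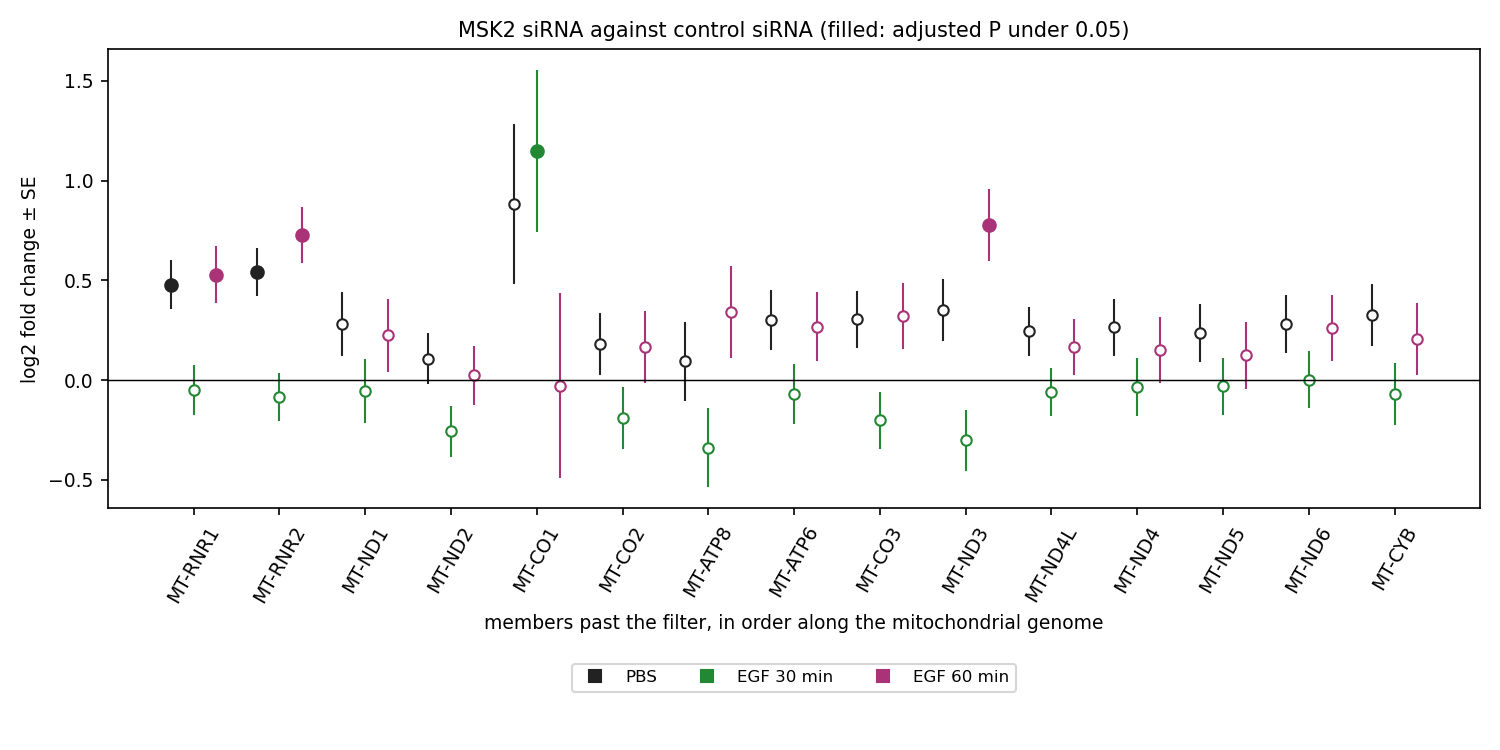
Log2 fold change of MSK2 over control siRNA (vertical axis, with SE) for the 15 members past the filter in genome order, after PBS, 30 min and 60 min of EGF. Filled points had an adjusted P under 0.05. MT-RNR1 and MT-RNR2 are filled after PBS and 60 min and lie at -0.05 and -0.08 after 30 min.

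Other measures were set beside these, and some differed between the siRNAs while others overlapped. MALAT1, a long RNA kept in the nucleus, lay at 3811 to 4548 CPM with control siRNA and at 5155 to 6430 CPM with MSK2 siRNA after PBS. The ranges were 3745 to 4989 and 4259 to 6096 CPM after 30 min and 3505 to 3749 and 4039 to 5683 CPM after 60 min. The summed level of the 12 fibroblast markers was 47620 to 66950 CPM with control siRNA and 65780 to 70810 CPM with MSK2 siRNA after PBS, and that of the 5 endothelial markers, 3 of which averaged under 1 CPM, was 57.8 to 65.2 and 16.3 to 27.6 CPM. Only 1 of these 5 passed the filter, so the endothelial sum rests on few genes and is not a measure of cell number. After 30 min, when the mitochondrial share overlapped between the siRNAs, the fibroblast sums were 52150 to 54650 and 66170 to 78790 CPM and the endothelial sums 51.7 to 63.8 and 20.7 to 21.8 CPM. After 60 min they were 56020 to 60630 and 64470 to 70070 CPM and 51.9 to 61.5 and 17.1 to 21.9 CPM. The 5 epithelial markers overlapped between the siRNAs, with sums of 55.9 to 64.3 and 51.3 to 65.3 CPM after PBS. Their sums were 57.0 to 69.4 and 48.8 to 61.8 CPM after 30 min and 63.3 to 70.4 and 66.9 to 69.5 CPM after 60 min. Reads outside any gene made up 2.53 to 7.21% and 4.48 to 5.41% of the reads after PBS, 3.41 to 6.07% and 4.19 to 5.35% after 30 min and 3.26 to 4.01% and 3.42 to 4.18% after 60 min. The shares of reads outside any gene overlapped between the siRNAs after each treatment. The part of all these measures in the mitochondrial values was not tested. With libraries scaled to genes other than the members, the calls in the siRNA comparisons were the same ones.

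The EGF comparisons asked whether the members change within the first hour of the growth factor. With control siRNA, no member was called after 30 min, by edgeR or by DESeq2, and none had an unadjusted P under 0.05. Of all tested genes 0.614% were called in either direction, and 279 genes above and 206 below 0 had an unadjusted P under 0.05. The log2 fold changes of the 15 ranged from -0.51 for MT-CO1 to 0.29 for MT-ND3, with a median of 0.15 beside 0.00 for all genes, and 14 were above 0. MT-ND6 was at 0.09 ± 0.14 (edgeR adjusted P = 0.997).

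After 60 min of EGF with control siRNA, MT-RNR2 fell. Its levels of 8661, 6156 and 7038 CPM overlapped those after PBS, since PBS replicate 3 had 8222 CPM. Its log2 fold change was -0.49 ± 0.13 (edgeR adjusted P = 0.0369). MT-ND3 lay below all PBS libraries, at 23.1, 24.4 and 21.6 CPM against 39.4, 35.3, 26.6 and 30.2 CPM, with a log2 fold change of -0.52 ± 0.17, and did not pass the test (edgeR adjusted P = 0.146). MT-ND6 was at -0.11 ± 0.16 (edgeR adjusted P = 0.848). The member called lower was 1 of 15, against 0.154% of all tested genes, and the median of the members was -0.12 beside -0.01 for all genes. The call was lost when the other groups were left out of the model (-0.48, adjusted P = 0.144) and without any of 5 of the 7 libraries, namely PBS replicate 1 (-0.36, adjusted P = 0.220), 2 (-0.51, 0.0559) or 4 (-0.49, 0.0512) and EGF replicate 2 (-0.39, 0.278) or 3 (-0.47, 0.168).

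With MSK2 siRNA, MT-RNR2 fell after 30 min of EGF. Its levels of 10420, 11710, 10940 and 9053 CPM were all below the PBS libraries with MSK2 siRNA, with a log2 fold change of -0.50 ± 0.12 (edgeR adjusted P = 0.0422). It was the only gene called lower in this comparison, in which 0.0102% of all tested genes were called lower. All 15 members were below 0, with a median of -0.25 beside -0.01 for all genes, and MT-ND6 was at -0.19 ± 0.14 (edgeR adjusted P = 0.651). The call was lost without any of 6 of the 8 libraries. Without PBS replicate 1, 2 or 4 the log2 fold change was -0.39, -0.52 or -0.53 (adjusted P = 0.246, 0.0756 and 0.0613), and without EGF replicate 1, 3 or 4 it was -0.49, -0.53 or -0.43 (adjusted P = 0.120, 0.0685 and 0.215).

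After 60 min with MSK2 siRNA no member was called by edgeR or DESeq2, against 2.16% of all tested genes called in either direction. All 15 members were again below 0, with a median of -0.17 beside -0.02 for all genes. MT-RNR2 did not overlap with PBS but did not pass the test, at -0.30 ± 0.13 (edgeR adjusted P = 0.459, unadjusted P = 0.0283), and it was the 1 member with an unadjusted P under 0.05, when 2.69% of all tested genes were lower at this level. MT-ND6 was at -0.13 ± 0.16 (edgeR adjusted P = 0.909).

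**Figure D4:**
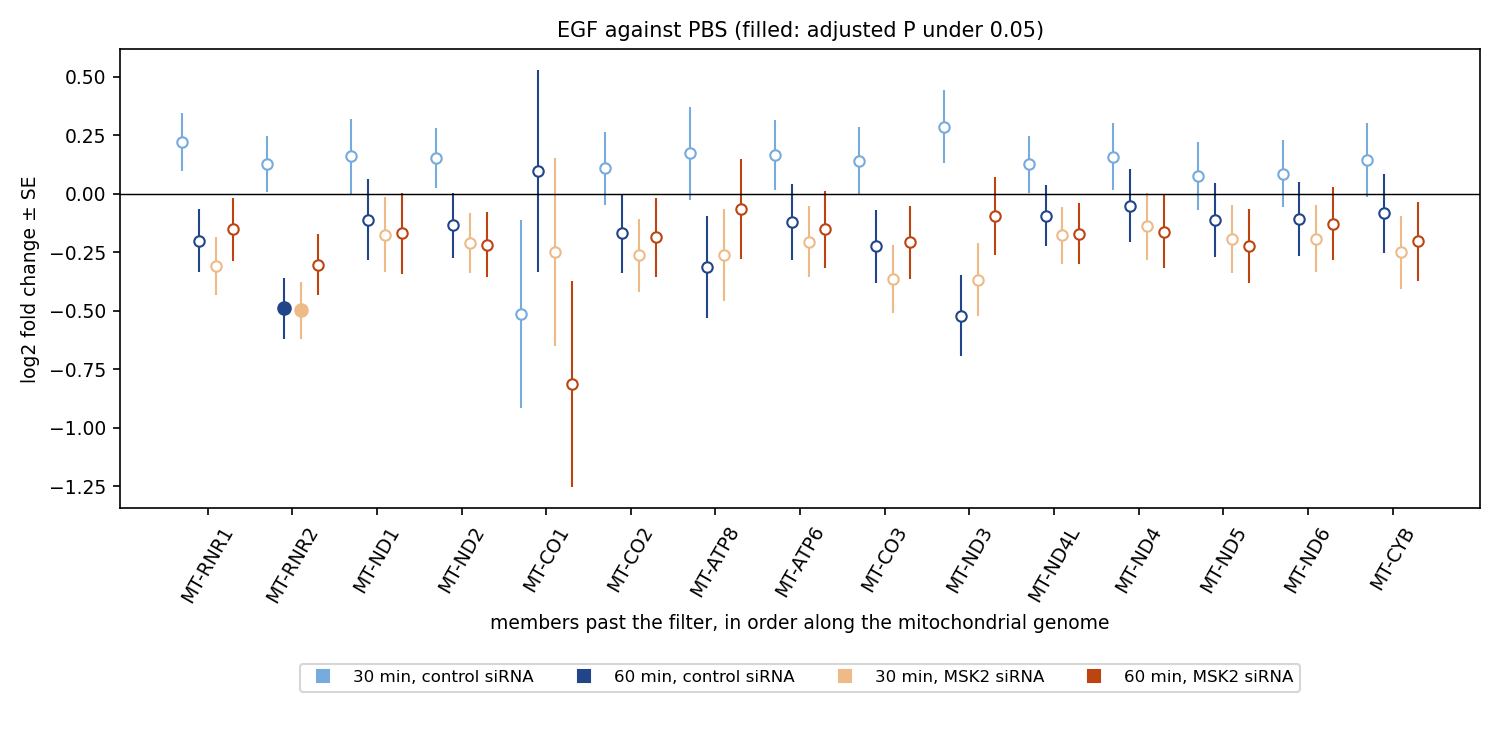
Log2 fold change of EGF over PBS (vertical axis, with SE) for the 15 members past the filter in genome order, at both times and with both siRNAs. Filled points had an adjusted P under 0.05. The 2 filled points are MT-RNR2, at -0.49 after 60 min with control siRNA and at -0.50 after 30 min with MSK2 siRNA, and all points of MSK2 siRNA lie below 0.

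Whether the siRNA changed the response to EGF was tested by the interaction of both. After 30 min, 0 of 15 members and 0% of all tested genes were called by edgeR, and DESeq2 called 0 members. Without adjustment 4 members had P under 0.05, all with a response lower in MSK2 than in control cells, and so had 366 genes above and 295 below 0. These members were MT-RNR2 (-0.63 ± 0.17, unadjusted P = 0.00104, edgeR adjusted P = 0.713), MT-RNR1 (-0.53 ± 0.18), MT-ND3 (-0.65 ± 0.22) and MT-CO3 (-0.51 ± 0.20). After 60 min, 0 of 15 members and 0% of all tested genes were called, 0 members by DESeq2 and 0 without adjustment, when 105 genes above and 111 below 0 had an unadjusted P under 0.05. MT-ND6 was at -0.28 ± 0.20 and -0.02 ± 0.22 (edgeR adjusted P = 0.758 and 1). A difference in response was therefore not established at either time.

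**Figure D5:**
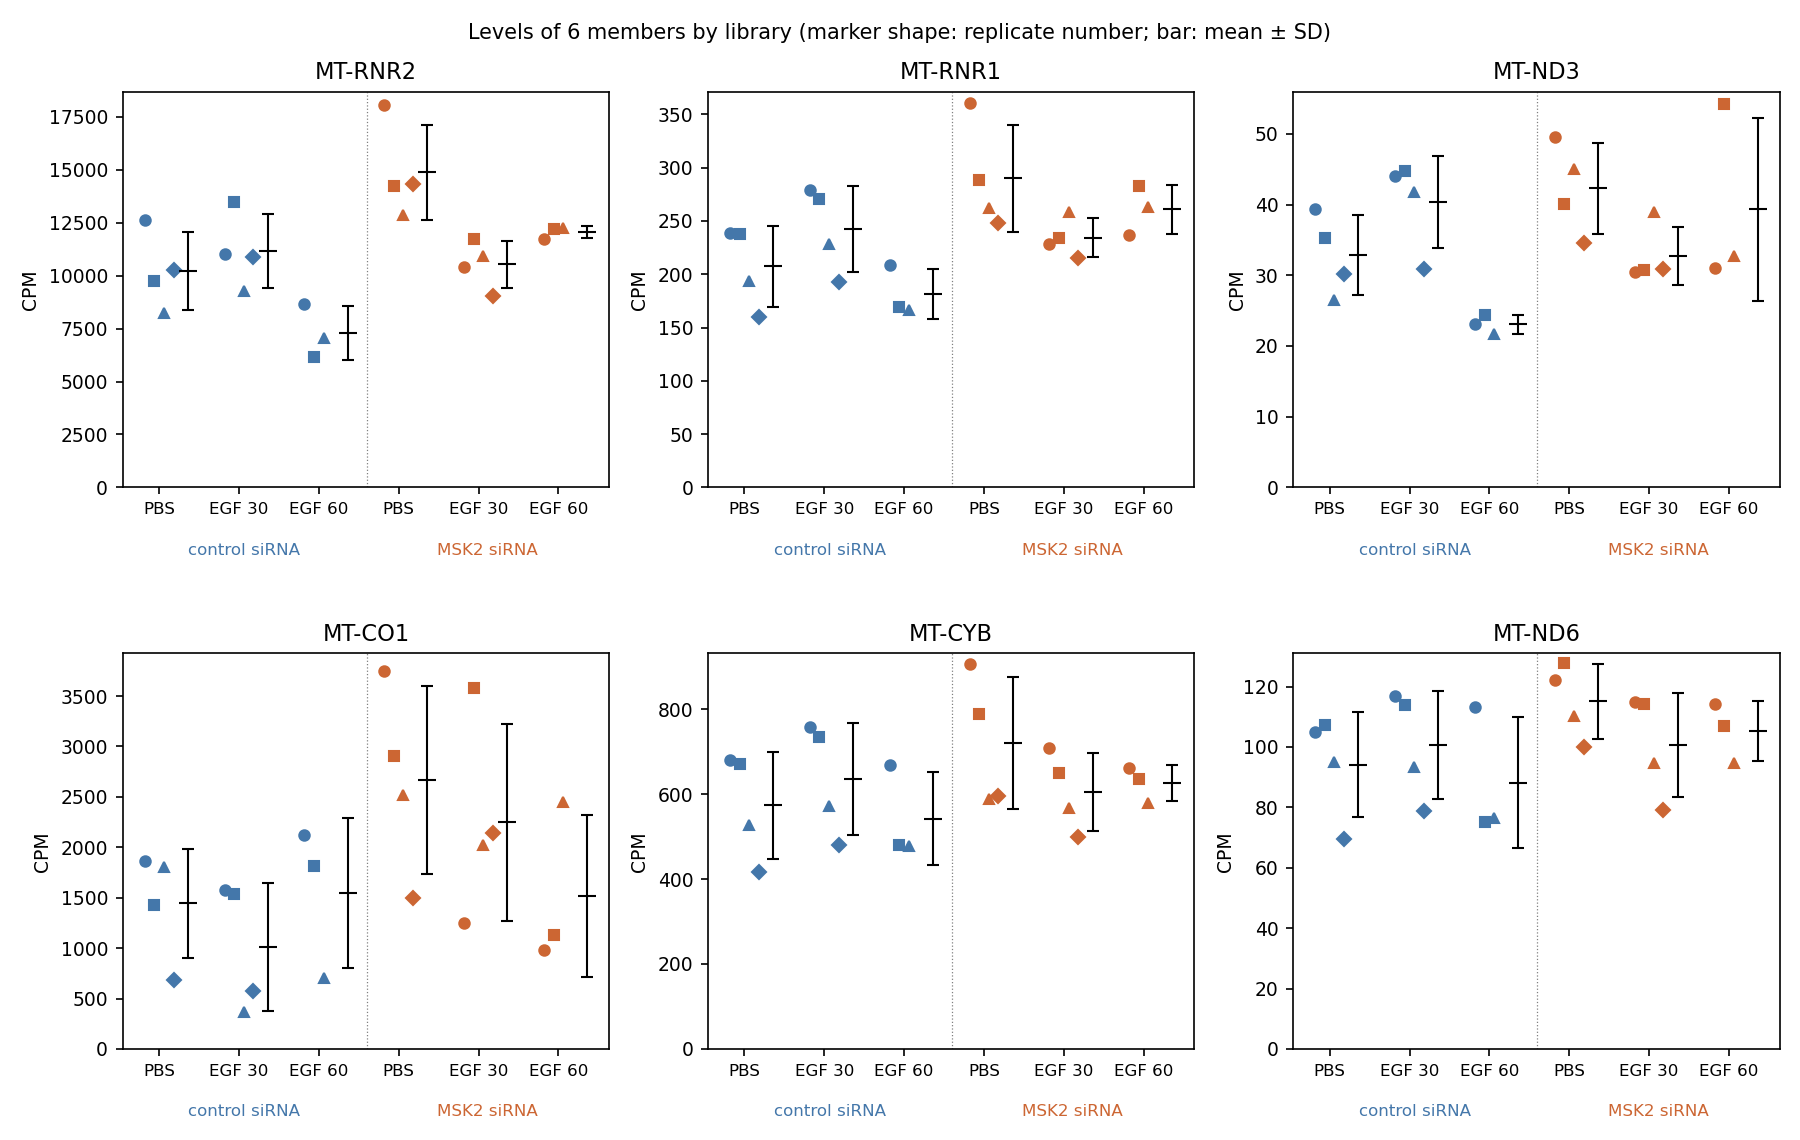
Levels (CPM, linear axis from 0) of 6 members in each library of the 6 groups, with the mean and SD beside the points. MT-RNR2, MT-RNR1 and MT-ND3 show separate groups for the siRNAs after 60 min of EGF, where each group holds only 3 libraries. MT-CO1 spreads from 364 to 3753 CPM, and MT-CYB and MT-ND6 overlap between all groups of the same treatment.

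Messenger RNAs that were not called in the main model are shown by 4 examples, 1 for each of complexes III, IV, I and V. With the replicate block, MT-CYB, MT-ND5 and MT-ATP6 were called higher with MSK2 siRNA after PBS, as were 13.4% of all tested genes. MT-CYB had mean levels (± SD) with control and MSK2 siRNA of 573.6 ± 126.1 and 720 ± 154.6 CPM after PBS, 635.5 ± 132.3 and 605.6 ± 91.62 CPM after 30 min and 542.4 ± 109.2 and 625.3 ± 41.96 CPM after 60 min. MT-CO2, which holds a copper centre of complex IV, had mean levels (± SD) with control and MSK2 siRNA of 1102 ± 236.6 and 1251 ± 283.4 CPM after PBS, 1191 ± 263.5 and 1042 ± 96.61 CPM after 30 min and 981.8 ± 206.4 and 1101 ± 84.9 CPM after 60 min. MT-ND5, a subunit of the proton-pumping arm of complex I, had mean levels (± SD) with control and MSK2 siRNA of 410.3 ± 72.54 and 483.8 ± 77.47 CPM after PBS, 433.3 ± 86.72 and 423.6 ± 71.02 CPM after 30 min and 380.6 ± 83.1 and 414.4 ± 43.92 CPM after 60 min. MT-ATP6, in the proton channel of the ATP synthase, had mean levels (± SD) with control and MSK2 siRNA of 298 ± 68.86 and 367.8 ± 66.62 CPM after PBS, 335.3 ± 69.17 and 319.2 ± 31.46 CPM after 30 min and 275.1 ± 50.18 and 330.9 ± 24.27 CPM after 60 min. For all 4 genes the libraries with control and MSK2 siRNA overlapped at every time.

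The members also varied within groups. MT-CO1 ranged from 364 to 3753 CPM, a 10.3-fold range, and its SD within groups was 0.76 on the log2 scale, beside a median of 0.15 over all tested genes. Of the 9770 genes only 1 had a larger SD. It took 2.44 to 17.3% of the mitochondrial counts of a library. The other 14 members had an SD within groups of 0.20 to 0.35.

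Most messenger RNAs varied together from library to library. As deviations from group means over the 22 libraries, the median Pearson correlation of a member with the other 14 was 0.90 for MT-CYB, 0.89 for MT-ATP6 and 0.87 for MT-ND6, which lies on the other strand. It was 0.77 for MT-RNR1, 0.61 for MT-ATP8, 0.52 for MT-CO1, 0.43 for MT-ND3 and 0.43 for MT-RNR2. These points share library, depth and scaling, and the correlations are descriptions. MT-RNR1 was closer to the messenger RNAs than to MT-RNR2, which was its partner with the lowest correlation (0.58).

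Among the genes of the nucleus, those with the deviation most like that of the mitochondrial share were UBXN11 (r = 0.81 over 22 libraries), CDK10 (0.80), ZDHHC1 (0.795), MTATP6P1 (0.78) and DEAF1, ARRDC1-AS1, B3GAT3, PGS1, MTMR11 and IL17RC (0.74 to 0.77). MTATP6P1 is a nuclear copy of the mitochondrial genome, with 181 to 939 counts per library. The genes with the most opposite deviation were STX6 (r = -0.87), PUM3 (-0.845), ATP6V1B2 (-0.84), NEPRO (-0.83), TBC1D8B (-0.82), NOL11 (-0.81), MAP2K6 (-0.80), LIMS1 (-0.79), NUP54 (-0.78) and CTDSPL2 (-0.775). They were picked as the ends of 9733 genes with a symbol, whose median was -0.02.

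The nuclear genes whose products work with the members were read from lists. Of 80 nuclear subunits of the respiratory complexes, 76 passed the filter. With MSK2 siRNA, 5 rose and 0 fell after PBS, 0 rose and 15 fell after 30 min of EGF, and 8 rose and 0 fell after 60 min. Of all tested genes, 12.2, 14.9 and 9.37% rose and 12.6, 15.2 and 10.1% fell in these comparisons. Their median log2 fold changes were 0.09, -0.18 and 0.19, beside 0.00, 0.01 and 0.01 for all genes. No subunit was called in the 4 EGF comparisons, where the medians were 0.13 and -0.13 with control siRNA and -0.15 and -0.02 with MSK2 siRNA.

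By complex, the nuclear subunits of complex I included 4 of 34 that rose after PBS, 7 that fell after 30 min and 7 that rose after 60 min. NDUFC1 rose after PBS (log2 fold change 0.41 ± 0.12, edgeR adjusted P = 0.0142) and after 60 min (0.59 ± 0.14, adjusted P = 0.00361), as did NDUFA2 (0.36 ± 0.12 and 0.54 ± 0.14). NDUFB5 rose at the same times (0.36 ± 0.10 and 0.38 ± 0.12) and NDUFB1 after 60 min (0.59 ± 0.18). NDUFS5, NDUFA6 and NDUFA10 fell after 30 min (-0.43 ± 0.10, -0.35 ± 0.10 and -0.19 ± 0.06). The SDHD subunit of complex II, which has no mitochondrially encoded part, rose after PBS (0.24 ± 0.09), as the only called member of 4. Of 9 nuclear subunits of complex III, UQCRQ, UQCRB and UQCRC2 fell after 30 min (-0.38 ± 0.13, -0.31 ± 0.11 and -0.18 ± 0.07), and of 12 of complex IV, COX8A and NDUFA4 did (-0.40 ± 0.13 and -0.28 ± 0.11). In complex V, ATP5PO, ATP5MC3 and ATP5MG fell after 30 min (-0.39 ± 0.14, -0.23 ± 0.08 and -0.33 ± 0.12) and ATP5F1E rose after 60 min (0.46 ± 0.14), of 17 measured.

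Of 71 measured proteins of the mitochondrial ribosome, which holds MT-RNR1 and MT-RNR2, 4 rose and 2 fell with MSK2 siRNA after PBS, 0 rose and 18 fell after 30 min, and 6 rose and 1 fell after 60 min, to be read against the same shares of all genes. MRPS6 rose after PBS (0.42 ± 0.10, edgeR adjusted P = 0.00152) and after 60 min (0.61 ± 0.11, adjusted P = 0.000163), and so did MRPL17 (0.37 ± 0.09 and 0.42 ± 0.11). MRPS18B rose after PBS (0.28 ± 0.08) and MRPS21 after 60 min (0.41 ± 0.12). MRPS9, MRPL30 and MRPL36 fell after 30 min (-0.72 ± 0.11, -0.49 ± 0.09 and -0.46 ± 0.11), the first of them also after PBS (-0.31 ± 0.11), as did MRPL30 (-0.30 ± 0.09). None was called in an EGF comparison.

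Of 29 measured genes for mitochondrial transcription and RNA handling, 0 rose and 2 fell after PBS, 2 rose and 4 fell after 30 min and 1 rose and 3 fell after 60 min with MSK2 siRNA. Of all tested genes, 12.2, 14.9 and 9.37% rose and 12.6, 15.2 and 10.1% fell in these comparisons. REXO2, a nuclease that degrades very short RNAs in mitochondria, fell at each time (-0.49 ± 0.07, -0.63 ± 0.07 and -0.40 ± 0.08, edgeR adjusted P = 3.98e-06, 7.04e-08 and 0.00056). MTERF3, of the family of transcription termination factors, also fell at each time (-0.66 ± 0.13, -0.48 ± 0.12 and -0.41 ± 0.15, adjusted P = 0.000211, 0.00436 and 0.0499). SLIRP, which binds mitochondrial messenger RNAs, fell after 30 min (-0.46 ± 0.12). TFAM, which packages mitochondrial DNA and starts its transcription, rose after 30 min (0.34 ± 0.11, adjusted P = 0.0234) and 60 min (0.51 ± 0.13, adjusted P = 0.00622). The polymerase POLRMT fell after 60 min (-0.41 ± 0.13, adjusted P = 0.0279). None of the 29 was called in an EGF comparison.

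Of 5 measured genes for mitochondrial DNA maintenance, the nuclease MGME1 rose with MSK2 siRNA at each time (0.34 ± 0.10, 0.38 ± 0.10 and 0.53 ± 0.12), and the topoisomerase TOP1MT fell after PBS (-0.53 ± 0.13) and 30 min (-0.69 ± 0.14). Of 7 measured regulators of mitochondrial biogenesis, MYC was lower with MSK2 siRNA at each time (-1.11 ± 0.11, -1.08 ± 0.10 and -0.78 ± 0.11) and was the 1 member that rose after 60 min of EGF, in control (1.15 ± 0.11) and MSK2 cells (1.48 ± 0.11), where 2.5 and 2.11% of all tested genes rose. YY1 rose after PBS (0.29 ± 0.09) and 60 min (0.33 ± 0.11), and PPRC1 fell at the same times (-0.26 ± 0.09 and -0.34 ± 0.10). The 2 nuclear copies of mitochondrial genes that passed the filter, MTATP6P1 and MTND2P28, were called in no comparison.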

How the data were processed

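The libraries and their groups were taken from the labels. The SMART-Seq v4 and Nextera XT kits were used for cDNA and libraries, with paired reads of 35 bases. The authors used bcl2fastq 2.20.0.422, STAR 2.7.9a (hg38) and HTSeq 0.13.5, and deposited whole-number counts per gene without normalization. The annotation release and strand setting are not given in the sources used here. The authors compared pairs of groups by the exact test in edgeR. Each file was 1 library of 7893209 to 22244216 gene counts. Summary lines naming no gene (18.3 to 22.4% of reads) were left out.

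As in the study, a gene was kept if it exceeded 10 CPM in 2 or more of the 22 libraries. Tests were made in edgeR 4.0.16 (R 4.3.3) by the quasi-likelihood method, in a model holding all 6 groups after TMM scaling, with Benjamini-Hochberg adjustment over 9770 genes. The code was tested on simulated data. Positions are those of GENCODE v44, and stretches of 35 bases were compared with chromosomes 1 to 22, X and Y of hg38 on both strands. Deviations for correlations are of log2(CPM + 0.5). Alternatives were the DESeq2 1.42.0 test, DESeq2 size factors within edgeR, total counts, scaling to other genes, filterByExpr, no filter, the exact test, only the compared groups, the replicate block and each library left out in turn. The main model left out the replicate number, and the replicate block put it in. Libraries with the same replicate number were taken as pairs only after PBS between the siRNAs. There all 4 correlations of deviations from the group means, over all tested genes, were above 0.1 (0.143 to 0.5).

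Named with values were all members past the filter, and with tests those called and MT-ND6. The remaining members were given by counts, with MT-TP as the one with the most. MT-TT, MT-TY, MT-TL1, MT-TF and MT-TG and the transfer RNAs at 0 were named after their values were seen. Of the other lists, the 3 called genes with the smallest P per comparison were named, with their calls between the siRNAs at other times, and of the likeness the 10 genes at each end. The members and lists were chosen with earlier results of these data known.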

Additional observations from a re-analysis of the deposited data

Results flagged for a closer look

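In groups of 4 libraries, a library was singled out when its gap to the nearest other library took up nearly the whole range of the group. This was looked at in 64 groups of values, and chance alone would flag about 1 in 20. It met 5 values, 4 of them in a library numbered 4 with control siRNA. After PBS with control siRNA, replicate 4 had 118 CPM of MT-ND2 beside 174.6 to 177 CPM in the other libraries, and 111 CPM of MT-ND1 beside 190 to 204 CPM. After 30 min of EGF with control siRNA, replicate 4 had 143 CPM of MT-ND1 beside 210 to 219 CPM, and 18.7 CPM of MT-ATP8 beside 41.5 to 44.1 CPM. After 30 min of EGF with MSK2 siRNA, replicate 3 had 38.9 CPM of MT-ND3 beside 30.45 to 30.94 CPM in the others. PBS control replicate 4 was also the library with the fewest gene counts (7893209), and its part in these values was not tested.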

How the results depend on the processing

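No called value changed direction. Of the single calls, 70 of 72 values under the 9 alternatives stayed on their side of the threshold, the exceptions being MT-CO1 after 30 min with DESeq2's own test (1.15, adjusted P = 0.0529, against 1.54e-61 to 0.0359 otherwise) and MT-RNR2 after 60 min of EGF with control siRNA and only the compared groups (-0.48, adjusted P = 0.144, against 6.89e-11 to 0.0464 otherwise), which gave 0 members called in each. With no filter on low counts, the members called lower were 1 after 30 min and 2 after 60 min of EGF with control siRNA (0.0206 and 0.0843% of all genes). They were 2 and 2 with MSK2 siRNA (0.00823 and 0.0165%), and 3 and 1 for the interactions at 30 and 60 min (0.0123 and 0.00617%). With MSK2 siRNA after PBS, 8 were called higher (1.95% of all genes). In this setting the SE of MT-CO1 between the siRNAs after 30 min was 0.07, against 0.41 in the main model. The smallest P values of the ranges above come from it, so calls kept without the filter say little about stability. The cause was not tested. With the replicate block, 10 members were called higher with MSK2 siRNA after PBS, 6 higher after 60 min, 1 lower after 30 min, and 2 lower in each EGF comparison with MSK2 siRNA, beside 13.4, 10.4, 16.3, 0.0307 and 0.113% of all tested genes in the same directions. Outside the PBS pairs, the correlations over all tested genes were -0.348 to 0.416, and the block changed no other count of calls. Single members could still follow the replicate number. After 30 min of EGF, MT-ND6 had 117, 114, 93.3 and 78.7 CPM in control replicates 1 to 4. It had 115, 114, 94.5 and 79.2 CPM in MSK2 replicates 1 to 4. MT-RNR2 and MT-CO1 did not fall in this order. An effect of the replicate number on the members was not tested.

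With each library left out in turn, the members called lower were 0 to 1 for 60 min of EGF with control siRNA and 0 to 1 for 30 min with MSK2 siRNA. Those called higher with MSK2 siRNA were 2 to 3 after PBS, 0 to 1 after 30 min and 1 to 3 after 60 min, and 0 to 2 were called lower after 30 min, the 2 being MT-ATP8 and MT-ND2 without EGF control replicate 4. All other counts stayed at 0. The shares of all tested genes are not given for these fits, so these counts alone do not set the members apart. With all libraries, 12.2, 14.9 and 9.37% of all tested genes were higher with MSK2 siRNA after PBS, 30 and 60 min. After 30 min 15.2% were lower. The shares called lower were 0.154% for 60 min of EGF with control siRNA and 0.0102% for 30 min with MSK2 siRNA.

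The log2 difference in mitochondrial share between MSK2 and control siRNA after 60 min was 0.52 over all members, 0.17 for the messenger RNAs, 0.74 for the ribosomal RNAs and 0.18 without MT-RNR2. After PBS it was 0.51, 0.44, 0.55 and 0.44. For 60 min of EGF against PBS with control siRNA it was -0.31 over all members, -0.0757 for the messenger RNAs and -0.0799 without MT-RNR2. With 1 library left out, the sign of the small share differences at 30 min was not stable, from -0.0049 to 0.189 for EGF with control siRNA and from -0.0449 to 0.131 between the siRNAs. Leaving out MT-CO1 or MT-RNR2 was chosen after seeing the data. Transfer RNAs could be fitted only without the filter, at 96 to 306 counts per library for all of them together.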
